A study of Homo sapiens with 6 samples.

Results

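The genes described here are the receptors, ligands and HES/HEY repressors of the Notch pathway, 10 of the 27942 genes in the count table. They were chosen by symbol: the receptors NOTCH1, NOTCH2 and NOTCH3, the ligands JAG1, JAG2, DLL1 and DLL4, and the transcriptional repressors HES1, HES4 and HEY1. All 10 symbols were found once each in the table, and all 10 passed the filter on low counts. The RNA-seq libraries came from HCT116, an established human colon cancer cell line with wild-type p53, and compared 3 libraries of cells treated with oxaliplatin at 0.5 µM for 24 h (OXA) with 3 libraries of untreated cells (NT). Oxaliplatin is a platinum drug that forms DNA adducts and is used against colorectal cancer. All 6 libraries come from the same line in culture, and the labels name no stromal, endothelial or immune cells beside it that could present Notch ligands as a tissue would. The labels do not say whether the replicates were separate cultures, and the p-values below measure the spread between these libraries.

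Notch signalling passes between touching cells. A Jagged or Delta-like ligand on one cell binds a Notch receptor on its neighbour, the receptor is cut by ADAM proteases and then by γ-secretase, and the freed intracellular domain enters the nucleus and joins the DNA-binding protein RBPJ and a Mastermind co-activator. HES and HEY genes are the classical targets of this complex and encode basic helix-loop-helix repressors. In the intestine the pathway is known for keeping crypt progenitors proliferating and for holding back secretory fates through HES1.

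The promoters of HES1 and HES4 are shown because they are the members whose windows contain the core letters of the RBPJ site, TGGGAA, searched on both strands. Each window runs from 250 bases before to 50 bases after the transcription start of the RefSeq annotation (GRCh38.p14), 5′ to 3′ on the strand of the gene, with the matches in capitals. The HES1 window is chr3:194135898-194136197 on the plus strand and the HES4 window is chr1:1000048-1000347 on the minus strand.
HES1: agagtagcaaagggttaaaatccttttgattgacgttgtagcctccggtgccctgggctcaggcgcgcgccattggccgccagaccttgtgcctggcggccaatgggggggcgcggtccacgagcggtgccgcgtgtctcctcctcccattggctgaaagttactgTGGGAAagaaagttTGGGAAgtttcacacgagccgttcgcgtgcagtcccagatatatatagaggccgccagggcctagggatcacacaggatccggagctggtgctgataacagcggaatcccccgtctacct
HES4: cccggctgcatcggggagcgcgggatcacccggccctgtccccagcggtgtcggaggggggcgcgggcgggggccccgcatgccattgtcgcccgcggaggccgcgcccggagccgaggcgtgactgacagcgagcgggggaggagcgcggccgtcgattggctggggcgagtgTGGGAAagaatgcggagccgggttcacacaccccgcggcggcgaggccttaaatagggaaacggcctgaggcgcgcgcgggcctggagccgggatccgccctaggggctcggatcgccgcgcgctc
HES1 held a pair of matches, with first bases at -84 and -70 from the start, and HES4 held 1, at -76, all of them reading in the direction of the gene. RefSeq windows were matched for 8 of the 10 members, and all except DLL1 and HEY1 were searched. The letters were present in 2 of these 8 windows and in 8439 of all 35116 promoter windows (24.0%). The E-box CACGTG, a palindrome bound by many helix-loop-helix factors, was in 0 of the 8 windows against 7.26% of all windows. The N-box CACNAG, which HES proteins can bind, was in 5 of the 8 (NOTCH1, NOTCH2, NOTCH3, DLL4 and HES1) against 38.0% of all windows. These matches describe the letters of the windows and are not evidence of binding.

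The cells were checked against marker genes of the tissue and of other cell types. All 8 epithelial markers were expressed, with summed levels of 80952 to 117045 normalised counts in NT and 131153 to 155569 in OXA. Endothelial markers summed to 31.9 to 39.5 normalised counts in NT and 22.9 to 42.8 in OXA, with CLDN5 at 0 counts in every library. Fibroblast markers, with DCN, LUM and THY1 at 0 counts in every library, summed to 121 to 301 in NT and 182 to 307 in OXA. Most of this was COL1A1, with 109 to 284 in NT and 170 to 277 in OXA. Leukocyte markers summed to 183 to 220.3 in NT and 207 to 242 in OXA. Most of that was CD68, with 155 to 207 in NT and 196 to 227 in OXA. None of the markers in these lists passed the test without the replicate block introduced below, a test that called 5.07% of all genes. With the block 4 epithelial markers were higher (KRT8, KRT18, KRT19 and CLDN4) and 1 lower (CDH1). That fit called 12.1% of all genes tested higher and 10.9% lower. The summed epithelial level did not overlap between the groups, and the list did not move as a whole. The groups overlapped for 4 of its 8 genes, 3 keratins (KRT8, KRT18 and KRT19) were higher in every OXA library, and KRT20 was lower in every OXA library. Over all genes tested, the groups did not overlap for 28.9%. KRT19 had 6427 to 15687 normalised counts in NT and 24380.0 to 35643 in OXA. The part of these markers in the results below was not tested. Library totals lay between 32979521 and 40967880 counts.

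No core member passed the test for a change with oxaliplatin when the groups were compared. Of the 10 genes, 0 were higher and 0 lower in OXA at an adjusted p-value under 0.05 (edgeR's quasi-likelihood test, Benjamini-Hochberg over the 13727 genes tested), where 5.07% of all genes tested were called. At an unadjusted p-value under 0.05 the count was again 0 of 10, against 21.7% of all genes, and DESeq2 called 0 of the 9 members it gave an adjusted p, against 9.05%. The groups did not overlap for 1 member, NOTCH2, against 28.9% of all genes. The median log2 fold change of the members was 0.070, beside 0.023 over all genes tested. NT and OXA libraries that carry the same number resembled each other, and when this number entered the fit as a block, 1 member, NOTCH1, was called higher and 0 lower. That fit called 23.0% of all genes, 12.1% higher and 10.9% lower. A fold change below is the edgeR log2 fold change of OXA over NT without the block, unless the block is named.

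**Figure D1:**
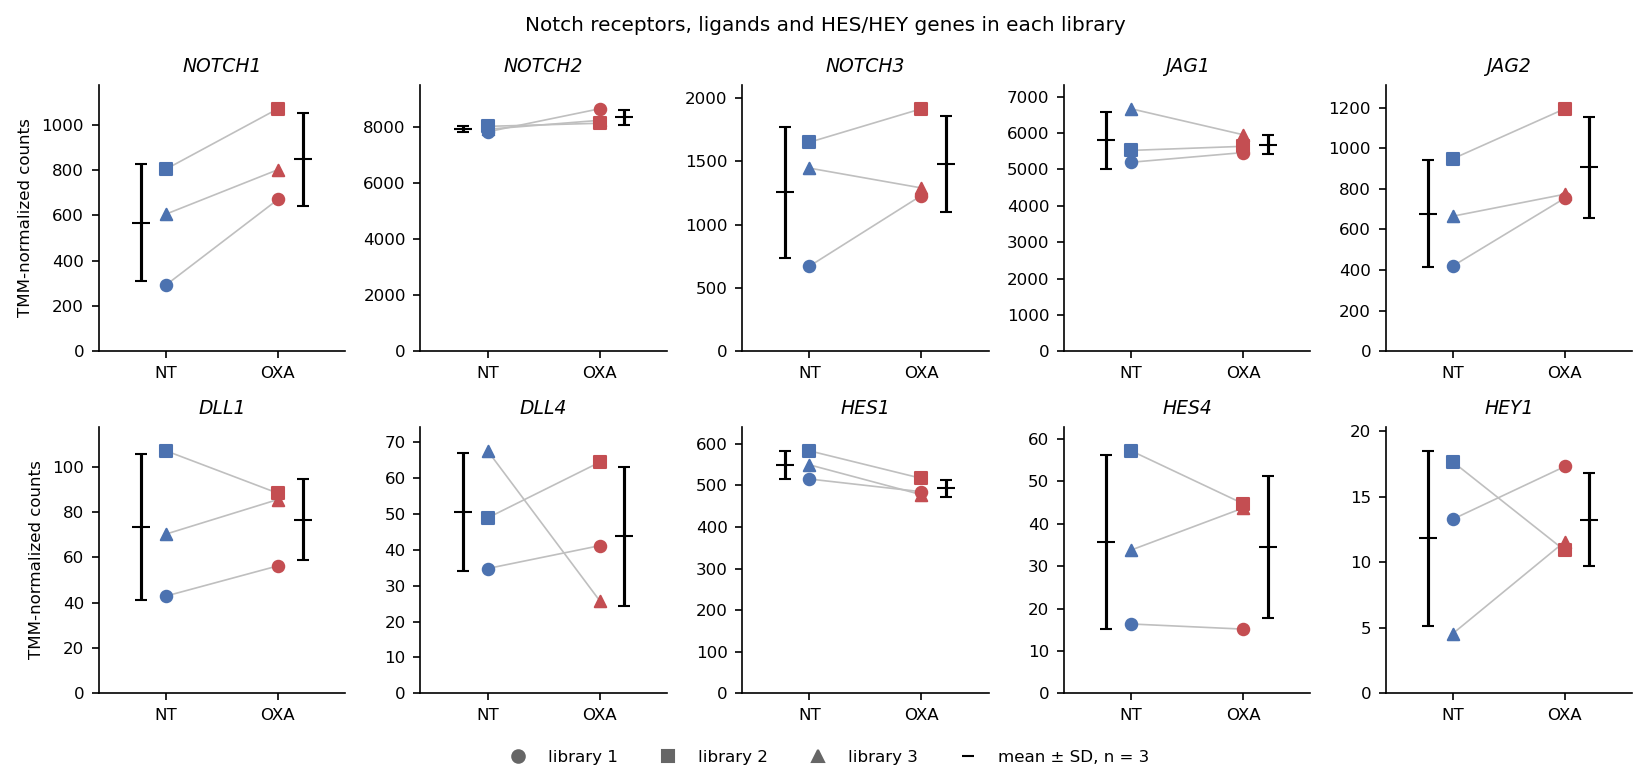
Normalised counts (y axis, linear, from 0) of the 10 members in the NT and OXA libraries; points are libraries, grey lines join libraries with the same number, and bars are mean ± SD (n = 3). NOTCH1 and JAG2 were higher in OXA within every same-numbered pair while their groups overlapped, HES1 was lower in OXA within every pair, and only NOTCH2 had all OXA libraries above all NT libraries.

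NOTCH1 (ENSG00000148400, GRCh38 chromosome 9, 136494433 to 136546048, minus strand) encodes the receptor most studied in progenitor cells and leukaemia. It had 292, 803 and 605 normalised counts in NT libraries 1, 2 and 3 and 669.7, 1069.6 and 801 in the OXA libraries of the same numbers. NT library 1 was far below the other libraries, the other NT libraries lay within or near the OXA range, and the groups overlapped. Means were 567 ± 258 in NT and 847 ± 204 in OXA (SD, n = 3), which is a log2 fold change of 0.58 (standard error 0.34, 95% interval -0.22 to 1.38, edgeR adjusted p = 0.385). Within pairs of the same number, OXA was higher in 3 of 3, by 1.19, 0.41 and 0.40 on the log2 scale. With the replicate block the fold change was 0.65 (standard error 0.17, interval 0.24 to 1.06) and edgeR's adjusted p was 0.0419. Without both libraries of number 1 the blocked fold change was 0.41, and the gene was still called (edgeR adjusted p = 4.55e-07, from 2 pairs). That fit called 2939 genes higher and 2800 lower of the 13845 it tested. Without NT library 1 alone and without the block, the fold change was 0.27 (edgeR adjusted p = 0.440).

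NOTCH2 (ENSG00000134250, chromosome 1, 119911553 to 120100779, minus strand), a receptor broadly expressed in epithelia, was the most evenly measured member. Its normalised counts were 7833, 8028 and 7925 in NT and 8656, 8139 and 8244 in OXA. Every OXA library was above every NT library, which held for 14.5% of all genes tested, and the difference was small. The means of 7929 ± 97.4 and 8346 ± 273 (SD, n = 3) gave a log2 fold change of 0.074 (standard error 0.076, interval -0.10 to 0.25, edgeR adjusted p = 0.632). The interval leaves room for a rise of at most 0.25 on the log2 scale. NOTCH2NLA, a near-identical copy of part of NOTCH2, had between 88 and 170 counts in a library, and reads shared between the copies could have been split in counting.

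NOTCH3 (ENSG00000074181, chromosome 19, 15159038 to 15200995, minus strand), best known from vascular smooth muscle, had 672, 1649 and 1446 normalised counts in NT and 1229, 1914 and 1289 in OXA. NT library 1 was again the lowest of all 6, and the remaining libraries of the groups were interleaved. The log2 fold change was 0.23 (standard error 0.32, interval -0.52 to 0.99, edgeR adjusted p = 0.731), and it turned to -0.067 without NT library 1.

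Among the ligands, JAG1 (ENSG00000101384, chromosome 20, 10637684 to 10673999, minus strand), the Jagged ligand linked to Alagille syndrome, was by far the most abundant. Its normalised counts were 5196, 5521 and 6666 in NT and 5462, 5634 and 5953 in OXA. The OXA values all lay inside the NT range. Means were 5794 ± 772 and 5683 ± 249 (SD, n = 3), and the log2 fold change of -0.028 (standard error 0.11, interval -0.29 to 0.23, edgeR adjusted p = 0.915) had no stable sign, being 0.054 without NT library 3.

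JAG2 (ENSG00000184916, chromosome 14, 105140982 to 105168824, minus strand), the second Jagged ligand, had 420.1, 948 and 665 normalised counts in NT and 754, 1194 and 773 in OXA. NT library 1 was the lowest and OXA library 2 the highest, and NT library 2 exceeded a pair of the OXA libraries. Means were 678 ± 264 and 907 ± 249 (SD, n = 3), with a log2 fold change of 0.42 (standard error 0.30, interval -0.28 to 1.12, edgeR adjusted p = 0.479). OXA was higher in 3 of 3 same-numbered pairs, by 0.84, 0.33 and 0.22. With the replicate block the fold change was 0.46 (interval 0.13 to 0.78) and edgeR's adjusted p of 0.0558 missed the threshold.

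The Delta-like ligands were covered by few reads. DLL1 (ENSG00000198719, chromosome 6, 170282206 to 170306565, minus strand), which marks secretory progenitors in the intestine, had 42.9, 107 and 70.3 normalised counts in NT and 56.3, 88.3 and 85.5 in OXA. The OXA values lay within the NT range, and the log2 fold change was 0.066 (standard error 0.35, interval -0.75 to 0.88, edgeR adjusted p = 0.937). DLL1 overlaps FAM120B on the other strand, which had 1939 to 2505 counts in a library; the library kit keeps strand, but the strand setting of the counting is not given in the sources used here. DLL4 (ENSG00000128917, chromosome 15, 40929340 to 40939073, plus strand), the ligand of sprouting endothelium, had 34.8, 48.8 and 67.5 in NT and 41.1, 64.3 and 25.8 in OXA. The third libraries of the groups were the highest and the lowest of all 6, and the log2 fold change was -0.22 (standard error 0.39, interval -1.11 to 0.68, edgeR adjusted p = 0.801). With the replicate block the intervals were -0.38 to 0.60 for DLL1 and -1.19 to 0.70 for DLL4, and neither gene was called.

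HES1 (ENSG00000114315, chromosome 3, 194136148 to 194138732, plus strand), the main Notch target of intestinal crypts and the gene with a pair of RBPJ letters in its promoter, had the most counts among the member repressors. It had 515, 583 and 549 normalised counts in NT and 485, 517 and 478 in OXA. The OXA values lay at the lower end of NT or below it, and the groups overlapped only because OXA library 2 stood just above NT library 1. Means were 549 ± 33.9 and 493 ± 20.9 (SD, n = 3), and the log2 fold change was -0.16 (standard error 0.11, interval -0.42 to 0.11, edgeR adjusted p = 0.483). OXA was lower in 3 of 3 pairs, by -0.088, -0.17 and -0.20. The block left the call as it was (edgeR adjusted p = 0.215, interval -0.36 to 0.046). HES1 was called lower, at -0.21 (edgeR adjusted p = 0.0222), only when each library's dependence on GC content and on transcript length was also removed, a setting that called 45.5% of all genes and 22.1% lower.

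HES4 (ENSG00000188290, chromosome 1, 998962 to 1000172, minus strand), a relative of HES1, had 16.4, 57.2 and 33.8 normalised counts in NT and 15.1, 44.7 and 43.7 in OXA. The first library was the lowest in both groups, and the log2 fold change was -0.043 (standard error 0.53, interval -1.27 to 1.19, edgeR adjusted p = 0.976). HEY1 (ENSG00000164683, chromosome 8, 79762371 to 79767857, minus strand), a HES-related repressor prominent in vessels and bone, had 13.3, 17.7 and 4.56 normalised counts in NT and 17.3, 10.9 and 11.6 in OXA. The groups overlapped fully, and the log2 fold change was 0.18 (standard error 0.50, interval -0.98 to 1.33, edgeR adjusted p = 0.879). With the replicate block the interval of HES4 was -0.66 to 0.61 and that of HEY1 -0.87 to 1.35, and neither gene was called.

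**Figure D2:**
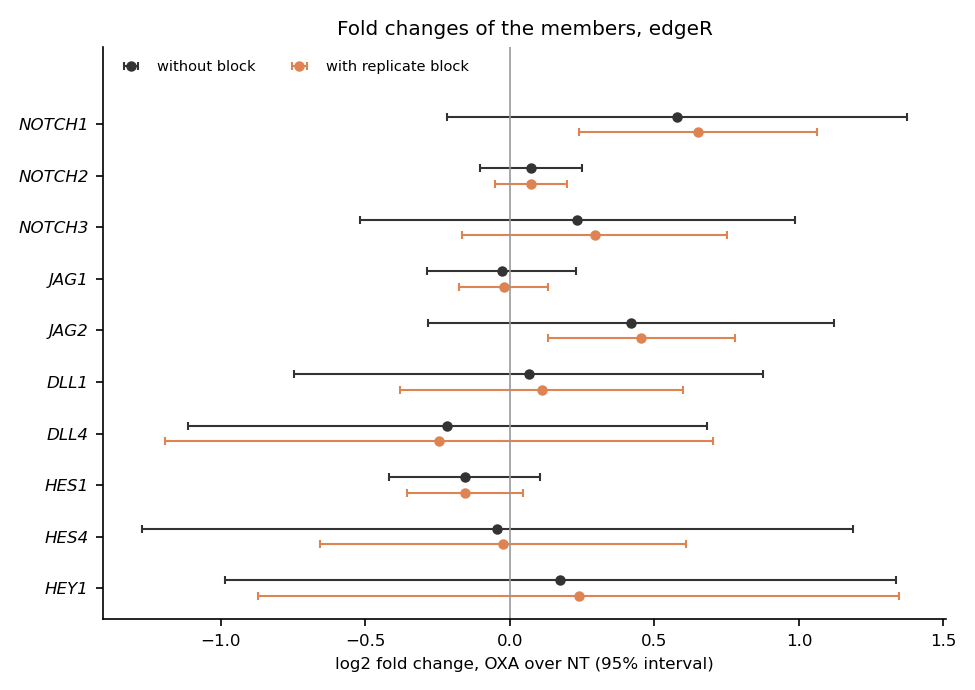
Log2 fold change of OXA over NT for each member (x axis) with its 95% interval, from edgeR without the block (dark) and with the replicate block (orange). Without the block every interval includes 0; with it the intervals of NOTCH1 (0.24 to 1.06) and JAG2 (0.13 to 0.78) do not, and of these NOTCH1 passed the adjusted threshold.

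The low values of NOTCH1, NOTCH3 and JAG2 in NT library 1 went with the base composition of the genes. GC content here is that of the canonical transcript. NOTCH1 (63.5% GC), NOTCH3 (63.1%), JAG2 (64.1%), DLL1 (59.5%), DLL4 (59.7%) and HES4 (73.8%) were GC-rich, while NOTCH2, JAG1, HES1 and HEY1 were under 55% GC. In NT library 1, the log2 level relative to the mean of the other NT libraries was -1.27 for NOTCH1, -1.20 for NOTCH3, -0.94 for JAG2, -1.04 for DLL1, -0.74 for DLL4 and -1.45 for HES4. The corresponding values were -0.026 for NOTCH2, -0.23 for JAG1, -0.14 for HES1 and 0.25 for HEY1. The same library had a median of -0.86 over the 1635 tested genes of 60 to 65% GC, and of 0.23 over the 2216 genes under 40% GC. It was the lowest of the 6 libraries for 78.2% of all genes over 55% GC, and for 4 of the 6 GC-rich members. Under 55% GC this held for 13.4% of all genes and for 2 of the 4 members, NOTCH2 and JAG1, and over all genes tested for 33.7%, beside 6 of the 10 members. The median log2 fold change of OXA over NT was 0.15 for all genes over 55% GC and -0.023 for those under it. With GC and length trends removed and the block kept, NOTCH1 stood at 0.46 on the log2 scale (edgeR adjusted p = 0.000342) and JAG2 at 0.28 (edgeR adjusted p = 0.00247), in a setting that called 23.4% of all genes higher. The part of base composition in the differences between OXA and NT was not tested further.

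**Figure D3:**
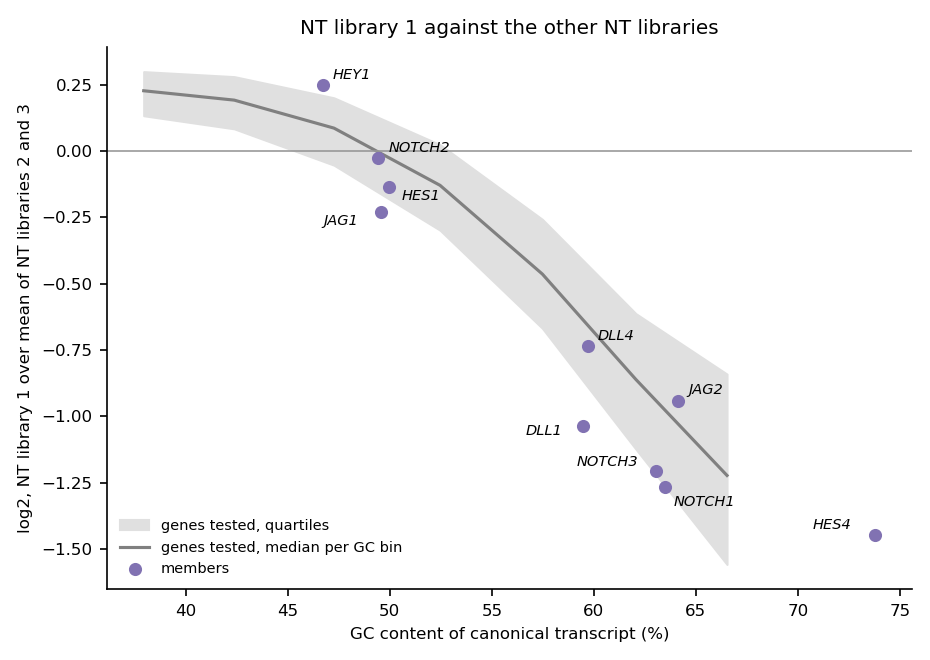
Log2 level in NT library 1 over the mean of NT libraries 2 and 3 (y axis) against GC content of the canonical transcript in percent (x axis); the line and band give the median and quartiles of all tested genes in each GC bin, and points are the 10 members. The GC-rich members lay between -0.74 and -1.45, and those under 55% GC between -0.23 and 0.25.

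Ratios between members inside a library do not depend on how libraries are scaled, and 6 were compared. They can still carry a library's dependence on GC content. The numerators NOTCH1, NOTCH3, JAG2, DLL1 and HES4 were GC-rich, and the denominators NOTCH2, JAG1 and HES1 were under 55% GC. The part of GC content in these ratios was not tested. The log2 ratio of NOTCH1 to NOTCH2 counts was -4.74, -3.32 and -3.71 in NT and -3.69, -2.93 and -3.36 in OXA. The ratio was higher in OXA in 3 of 3 same-numbered pairs, and the groups overlapped. The mean difference of 0.60 had a two-sided exact permutation p of 0.4 over libraries, where 0.1 is the smallest that 3 against 3 can give, and a sign-flip p of 0.25 over pairs, the smallest that 3 pairs can give. Without NT library 1 the difference was 0.19. The ratio of JAG2 to JAG1 was also higher in OXA in 3 of 3 pairs, with a mean difference of 0.49 (exact permutation p = 0.3), and 0.25 without NT library 1. The ratios of NOTCH3 to NOTCH2, DLL1 to JAG1, HES4 to HES1 and HEY1 to HES1 differed by 0.23, 0.15, 0.12 and 0.48, with exact permutation p-values of 0.8, 0.8, 1 and 0.7. All 6 pairs overlapped between the groups, and adjusted over the 6 the exact p-values were 0.96 to 1.

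**Figure D4:**
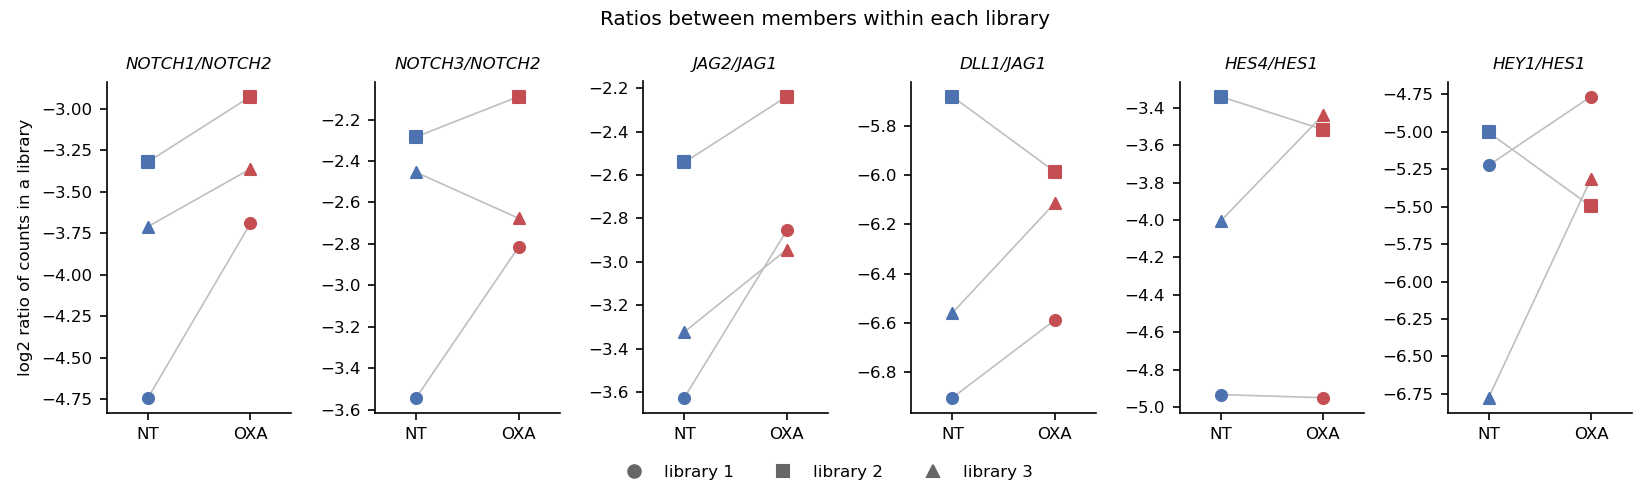
Log2 ratio of counts of the named members within each library (y axis, a separate scale in each panel) in NT and OXA, with lines joining libraries of the same number. NOTCH1/NOTCH2 and JAG2/JAG1 are higher in OXA along all 3 lines, by 0.35 to 1.05 and 0.30 to 0.77, and the groups overlap in every panel.

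Levels of different genes were set side by side as CPM (counts scaled to a common library total) per kilobase of the canonical transcript. In NT, JAG1 had 27.1 ± 3.61 (SD, n = 3), NOTCH2 19.3 ± 0.24 and HES1 9.69 ± 0.60, and these 3 genes stood above the other members without overlap between neighbours in the order. Next came NOTCH3 at 4.02 ± 1.65, JAG2 at 3.26 ± 1.27, NOTCH1 at 1.65 ± 0.75 and HES4 at 1.12 ± 0.64. DLL1 at 0.54 ± 0.24, DLL4 at 0.41 ± 0.13 and HEY1 at 0.15 ± 0.084 were lowest. From NOTCH3 down to DLL4, each gene overlapped its neighbour in the order in the NT libraries. In OXA the order was the same, from JAG1 at 26.6 ± 1.17 to HEY1 at 0.17 ± 0.045, and it was also the same with the length of all exons merged. The most abundant ligand and receptor in this measure were thus JAG1 and NOTCH2 in both groups. JAG1, NOTCH2 and HES1 were under 55% GC, and the members below them except HEY1 were GC-rich. The measure does not correct for GC content.

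Of the rest of the pathway, 77 further genes were listed by role, of which 67 were tested. At 0 counts in every library were 6 genes: the ligand DLL3, the matrix protein MFAP5, the co-repressor TLE4 and the repressors HES3, HES5 and HELT. Without the block 2 of the 67 were called higher (HES2 and BHLHE40) and 0 lower, where 2.78% and 2.29% of all genes were called. At an unadjusted p-value under 0.05 the counts were 5 higher and 3 lower of 67, against 21.7% of all genes in either direction, and DESeq2 called 2 higher and 1 lower, against 4.64% and 4.41% of all genes. With the replicate block 6 were higher and 4 lower, against 12.1% and 10.9% of all genes. The median log2 fold change of the 67 was 0.036, and the 57 genes called in neither fit lay between -0.38 and 0.74.

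HES2, a HES-family repressor on chromosome 1, had the largest fold change of the list. Its normalised counts were 424, 560.1 and 478 in NT and 964, 1137 and 933 in OXA. The groups stood clear of each other in every library, with means of 488 ± 68.4 and 1011 ± 110.1 (SD, n = 3). The log2 fold change was 1.05 (standard error 0.14, interval 0.72 to 1.38, edgeR adjusted p = 0.00975), and the call was lost without NT library 3, OXA library 1 or OXA library 2, with fold changes of 1.01, 1.09 and 0.96 and edgeR adjusted p-values of 0.0566, 0.0584 and 0.0525. With the replicate block HES2 was called (edgeR adjusted p = 0.00195), also when any 1 replicate number was left out. Those left-out fits rest on 2 pairs, which hardly measure a gene's own spread, so they add little support. The fit without number 1 called 2939 genes higher and 2800 lower of the 13845 it tested. The study's own list of changed genes also names HES2, and that list was read before this one was written. It was made from these same libraries, with a cutoff on fold change as well, so it is not separate support. BHLHE40, a stress- and clock-related helix-loop-helix repressor, had 1670.3, 2454 and 1629.9 normalised counts in NT and 3337, 3679.8 and 2989 in OXA. Every OXA library was above every NT library, and the log2 fold change was 0.80 (standard error 0.17, interval 0.40 to 1.20, edgeR adjusted p = 0.0428). That call was lost when NT library 3 or any 1 of the OXA libraries was left out, with fold changes of 0.66 to 0.84 and edgeR adjusted p-values of 0.111 to 0.162. Over all genes, calls higher and lower numbered 381 and 315 with all libraries, and 115 and 69 without NT library 3. They numbered 66 and 19 without OXA library 1, 94 and 32 without OXA library 2, and 102 and 67 without OXA library 3. With the block BHLHE40 was called (edgeR adjusted p = 0.0045), also when any 1 replicate number was left out, with the same limit of 2 pairs.

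NRARP, a Notch-induced protein that feeds back on the receptor complex, had 465, 620.4 and 429 normalised counts in NT and 344, 410.0 and 289 in OXA. Every OXA library was below every NT library. The log2 fold change of -0.54 (standard error 0.19) had an edgeR adjusted p of 0.157 without the block and 0.0141 with it, and the blocked call was lost without number 2 (edgeR adjusted p = 0.0515). The remaining 3 tested genes of this group were called in neither fit.

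In receptor glycosylation, 0 of 8 genes were called in either fit, where 5.07% of all genes were called without the block and 23.0% with it. POFUT1, which adds the O-fucose that ligand binding needs, stood at -0.032 on the log2 scale (interval -0.25 to 0.19). In receptor cleavage, ADAM10, the protease of the first cut, had -0.075 (interval -0.30 to 0.15). Of the 9 cleavage genes, 1 was called, and with the block only, where 23.0% of all genes were called. This was APH1A, a γ-secretase subunit, at -0.22 (edgeR adjusted p = 0.0291, and 0.483 without the block). Its blocked call was lost without number 2 or 3 (edgeR adjusted p = 0.329 and 0.203). In ligand ubiquitination and endocytosis 0 of 6 were called in either fit, against the same 5.07% and 23.0% of all genes. MIB1, the ligase that activates ligands, had -0.14 (interval -0.41 to 0.12).

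In the transcription complex 1 of 9 genes was called, again only with the block, against 23.0% of all genes. This was the acetyltransferase gene KAT2A, at 0.34 (edgeR adjusted p = 0.0412, and 0.30 without the block), and its blocked call was lost without number 2 (edgeR adjusted p = 0.155). The most abundant gene of the complex, SNW1, had 0.11 (interval -0.19 to 0.42). RBPJ itself, named here after its values were seen, had -0.030 (interval -0.26 to 0.20). Among 14 tested co-repressors 1 was called with the block, against the same 23.0% of all genes. It was RITA1, which exports RBPJ from the nucleus, at 0.45 (edgeR adjusted p = 0.0311, and 0.224 without the block). HDAC1 had 0.040 (interval -0.17 to 0.25).

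In receptor turnover 4 of 12 genes were called with the block, against 23.0% of all genes, and 0 without it. FBXW7, the ubiquitin ligase adaptor that removes the Notch intracellular domain, had 1139.8, 985 and 976 normalised counts in NT and 1400.1, 1283 and 1334 in OXA. All OXA values lay above NT, and the log2 fold change with the block was 0.38 (edgeR adjusted p = 0.0161, and 0.0864 without the block). The blocked call of FBXW7 was lost without number 2 or 3 (edgeR adjusted p = 0.166 and 0.0695), and without the block the gene was called once NT library 1 was left out (0.45, edgeR adjusted p = 0.0247). NEDD4, a membrane ubiquitin ligase, had 1261, 1051 and 1071 in NT and 803, 748 and 889 in OXA. All OXA values lay below NT, and the log2 fold change with the block was -0.47 (edgeR adjusted p = 0.0209, and 0.0693 without the block). DESeq2 called NEDD4 without a block (adjusted p = 0.0285). DTX3L, a Deltex-family ligase, had -0.46 with the block (edgeR adjusted p = 0.00963, and 0.111 without), and ITCH, a ligase of the NEDD4 family, had 0.20 (edgeR adjusted p = 0.0411, and 0.388 without). The blocked call of ITCH was lost without number 2 or 3 (edgeR adjusted p = 0.536 and 0.394). DTX3L overlaps PARP9 and APH1A overlaps C1orf54, each on the other strand, so their counts carry the same doubt about strand as those of DLL1.

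**Figure D5:**
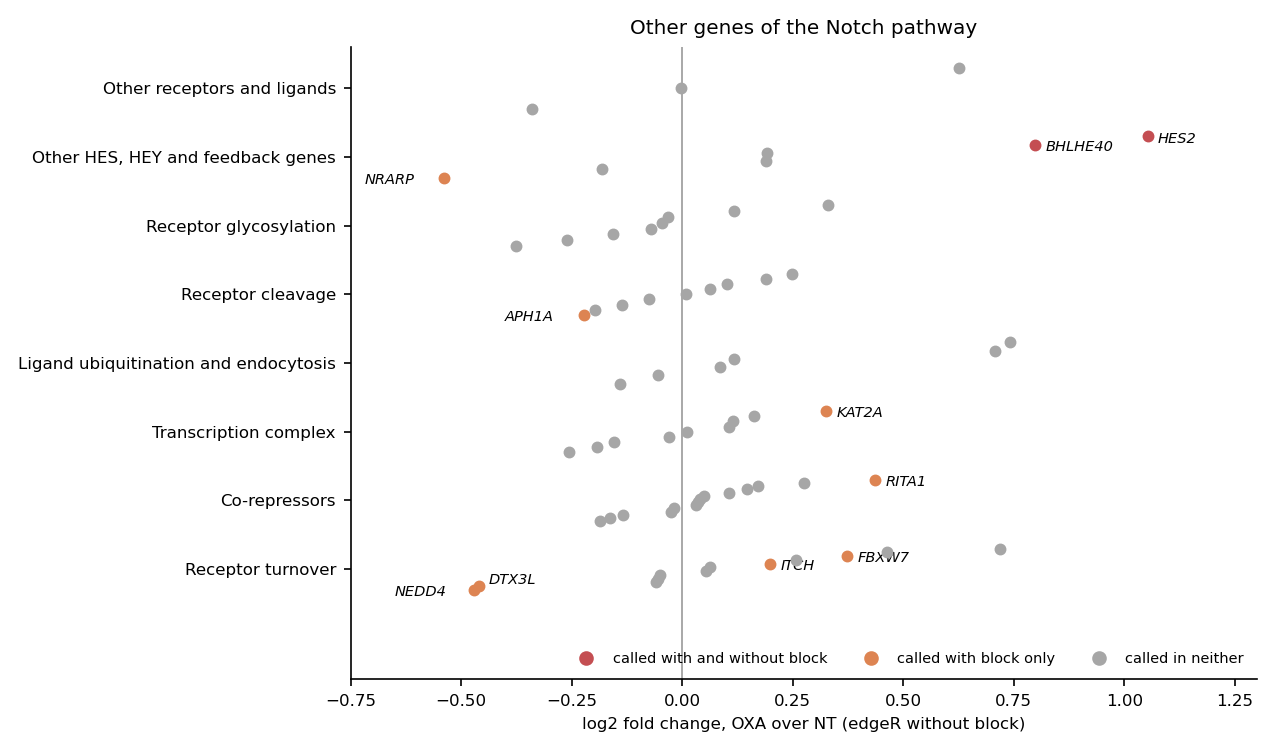
Log2 fold change of OXA over NT (x axis, edgeR without the block) of the 67 tested genes outside the core members, by role (y axis); red points passed the test with and without the replicate block, orange points with the block only, grey points in neither. HES2 at 1.05 and BHLHE40 at 0.80 stand apart on the right, and the 8 genes called with the block only lie between -0.54 and 0.44.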

How the data were processed

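Polyadenylated RNA of 6 HCT116 samples was sequenced as paired 100 nt reads from stranded libraries. The submitters' processing notes name Trimmomatic 0.32, STAR 2.7.5b, RSEM 1.3.3 and DESeq2 2.13 on GRCh38; the strand setting and gene annotation of the counting are not given in the sources used here. The authors deposited raw counts per gene, which are whole numbers, used as deposited; since the role of RSEM is not stated, they may be rounded estimates. The authors' normalized signal, also deposited, served only for an alternative. The totals of 32979521 to 40967880 counts leave few reads for DLL1, DLL4, HES4 and HEY1, and PCR duplicates could not be told apart.

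Genes were filtered with filterByExpr (minimum count 10, minimum total count 15), leaving 13727 of the 19353 genes with a count. Counts were normalised by TMM, scaled to the mean library for display, and tested with edgeR 4.0.16 (quasi-likelihood test, limma 3.58.1) in R 4.3.3; p-values were adjusted by Benjamini-Hochberg across the genes that passed the filter, with a threshold of 0.05. Standard errors were derived from the fold change and its F statistic. Ratios used counts plus 0.5 and exact permutation tests in scipy 1.17.1. Positions, lengths and GC content came from GENCODE 44, and promoter windows from RefSeq on GRCh38.p14. The steps were tested on simulated data.

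Deviations from the group means were shared by NT and OXA libraries of the same number (correlations across genes of 0.55, 0.54 and 0.31, all over the limit of 0.1 set for pairing), so the replicate block is given where it changes a call. The numbers come from the sample labels, which do not say what a number stands for. The genes named are all members, every gene of the wider list called without or with the block, and the gene of highest mean count in each role. TLE5 was matched by its gene identifier. The genes at 0 counts and the individual markers of every list were named after their values were seen. The members and lists were chosen with earlier results of these data known. The marker lists were epithelial, endothelial, fibroblast, leukocyte and secretory intestinal. Alternatives were other size factors, other filters, DESeq2 1.42.0, limma-voom, the authors' normalized values as log2(value + 1), the block, and each library left out; chosen after seeing the data were the block with GC and length trends removed and the block with 1 replicate number left out.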

Additional observations from a re-analysis of the deposited data

How the results depend on the processing

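The 10 members gave 0 calls in either direction under other size factors, other filters, DESeq2, limma-voom, the authors' normalized values and each library left out. The replicate block called 1 member higher (NOTCH1); with GC and length trends also removed it called 2 higher (NOTCH1 and JAG2) and 1 lower (HES1). Leaving out 1 replicate number under the block left 2 pairs and called 2 to 3 members higher and 0 lower: NOTCH1 and JAG2 each time, and NOTCH3 without number 3. In these fits on 2 pairs edgeR's adjusted p for NOTCH1 was 4.55e-07 to 0.000952, below that on 3 pairs. The standard errors were 0.075, 0.18 and 0.15 without numbers 1, 2 and 3, beside 0.17 on 3 pairs. A gene's own spread is hardly measured by 2 pairs, so the smaller p-values are not stronger support. The cause of the smaller values was not tested. In the wider list the block gave 6 higher and 4 lower, the block with trends removed 12 and 12, the block without 1 number 5 to 11 higher and 2 to 10 lower, DESeq2 1 lower (NEDD4), and each library left out without the block 0 to 3 higher. Over all genes, higher and lower calls numbered 381 and 315 as reported and 1664 and 1493 with the block. They numbered 3209 and 3031 with trends removed, and 609 and 578 by DESeq2. Leaving out OXA library 1 gave 66 and 19, and leaving out NT library 1 gave 623 and 571. The block without number 1 called 2939 higher and 2800 lower of 13845 genes. Without number 2 the block called 956 and 673 of 13764, and without number 3 it called 1886 and 1193 of 13781.

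The genes whose sign turned passed neither the test as reported nor that with the block. Of them, NOTCH3 was called under the block without number 3, and SNW1 under the block without number 1 (edgeR adjusted p = 0.0156) and with trends removed (0.00715). With each library left out, log2 fold changes ranged from -0.067 to 0.45 for NOTCH3, -0.10 to 0.054 for JAG1, -0.20 to 0.41 for DLL1, -0.60 to 0.037 for DLL4, -0.38 to 0.43 for HES4, -0.26 to 0.55 for HEY1, -0.12 to 0.083 for CNTN1, -0.12 to 0.0041 for POFUT1, -0.0049 to 0.25 for SNW1 and -0.043 to 0.087 for HDAC1. Under the block with 1 number left out they ranged from -0.078 to 0.041 for JAG1, -0.00068 to 0.30 for DLL1, -0.63 to 0.32 for DLL4, -0.26 to 0.16 for HES4, -0.15 to 0.72 for HEY1 and -0.040 to 0.00077 for CNTN1. The block with trends removed turned DLL1 (-0.021), CNTN1 (0.090) and ADAM10 (0.0077), and the authors' normalized values turned CNTN1 (0.26). Differences of log2 ratios ranged from -0.16 to 0.47 for NOTCH3/NOTCH2, -0.11 to 0.50 for DLL1/JAG1, -0.30 to 0.62 for HES4/HES1 and -0.078 to 0.81 for HEY1/HES1 with each library left out. For these ratios no call at 0.05 was possible, so a change of test could not alter one. The smallest possible p was 0.1 for the exact permutation test and 0.25 for the sign-flip test over pairs. With the length of all exons merged, NT levels per kilobase were 13.2 for NOTCH2, 17.3 for JAG1, 7.41 for HES1 and 0.060 for HEY1. The median log2 fold change of all genes lay within 0.1 of 0 under every alternative of the edgeR, DESeq2 and limma fits.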

Other observations

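Markers of secretory intestinal cells, the fate that Notch signalling is known to restrain, were near the floor in both groups. The 8 markers together had 10.4 to 16.4 normalised counts in NT and 6.49 to 8.91 in OXA, none passed the filter, and NEUROG3 and DEFA5 were at 0 counts in every library. ATOH1, the transcription factor of secretory commitment, had 4, 3 and 2 counts in NT and 1, 1 and 2 in OXA. In normalised counts the groups overlapped for 7 of the 8 markers, all except ATOH1. Over all genes tested, the groups did not overlap for 28.9%. ATOH1 was apart only through library scaling, since library 3 had 2 counts in NT and in OXA (1.83 and 1.78 normalised). LYZ, which is also on the leukocyte list, had 11, 3 and 10 counts in NT and 0, 0 and 4 in OXA. The lower sum in OXA came from LYZ, with 3.12 to 11.2 normalised counts in NT and 0 to 3.56 in OXA. Without LYZ the summed counts of the groups overlapped. MUC2 had 0, 2 and 3 in NT and 3, 2 and 4 in OXA. A change of the list was not tested. No fold change is given at these counts.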
